A study of Rattus norvegicus with 4 samples.

Results

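Cells derived from olfactory bulb neural stem cells were compared with cells derived from hippocampal neural stem cells, both labelled as neurons, across all genes that the array could name. The samples were the pair of arrays whose titles give the source and the word for neurons, 2 of the 4 samples of the series; the other 2 arrays held the stem cells from which these cells were derived. All cells came from fisher 344 rats, per the labels, and all groups share that strain. Stem cells were taken from the hippocampus or from the olfactory bulb, and the labels give no age, medium, time or agent for the differentiation. The title of the series names insulin biosynthesis in progenitors of the adult brain as the question. Total RNA of 3 independent experiments was pooled for each sample and measured on 1 Agilent 1-colour array, so no value has a replicate error, no difference could be tested, and every comparison below describes these pools. Both arrays labelled neurons lay on 1 slide.

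The adult rat brain keeps neural stem cells in the dentate gyrus of the hippocampus and along the route that supplies new interneurons to the olfactory bulb. When such cells leave growth factors they can give rise to neurons, astrocytes and oligodendrocytes. The bulb is also the place where axons of the olfactory nerve arrive wrapped by olfactory ensheathing cells, a glial type related to Schwann cells, and it is covered, like the hippocampus, by meninges rich in fibroblasts. The choroid plexus, an epithelium that makes cerebrospinal fluid, lies close to the hippocampus.

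Levels are given as the log2 of the processed signal minus the 75th percentile of the same array, so that 0 marks a bright probe and a difference of 1 is 2-fold. A difference is always the bulb-derived value minus the hippocampus-derived value, and a gene is called higher or lower at a difference of 1 or more. Some probes were not well above background on 1 of the arrays. The dim side was then set to the higher of its own signal and the lowest signal well above background on that array. Such a difference is written as "at least". The spots of probes printed 10 times had a median SD of 0.060 on the hippocampus-derived array and 0.070 on the bulb-derived array, which is the noise of spots and not of cultures. Different probes of a gene that were well above background on both arrays gave differences with a median SD of 0.091 over 1334 genes.

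Of 8927 named genes, 7000 had a probe well above background on 1 or both arrays of derived cells and were compared. The bulb-derived cells had 536 genes higher (7.66%) and 560 lower (8%), and 84.3% of the genes lay within 2-fold. At 4-fold the counts were 152 higher (2.17%) and 191 lower (2.73%), and at 8-fold they were 52 higher (0.743%) and 84 lower (1.2%). The median of all genes was -0.01, and among the 6359 genes measured on both arrays the middle of the distribution ran from -0.34 to 0.29 (interquartile range). Over all probes, named or not, 2070 of 30539 were higher (6.78%) and 1796 lower (5.88%). More probes were well above background on the bulb-derived array (74% against 66.6%), and 544 genes were seen only there against 97 seen only on the other array. The lowest signal counted as well above background was 8.52 on the bulb-derived array and 15.6 on the hippocampus-derived array, so a bound was easier to pass in 1 direction than in the other: 89 of the 536 higher genes and 90 of the 560 lower genes rest on a bound. The counts depend on how the arrays are scaled: 1 of 7 transcripts spiked into the samples was 3.06 brighter on the bulb-derived array before scaling, the other 6 differed by -0.03 to 0.08, and scaling by the mean of all 7 moved the median of all genes to -0.62, with 257 genes higher and 1516 lower (14.5% of the called genes higher, against 48.9%). Scaling by their median gave -0.13, with 463 higher and 650 lower. Counts under the mean of the spiked-in transcripts, which shifts every difference measured on both arrays down alike, or under normexp, a model-based background correction, are given beside several of the gene lists.

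**Figure D1:**
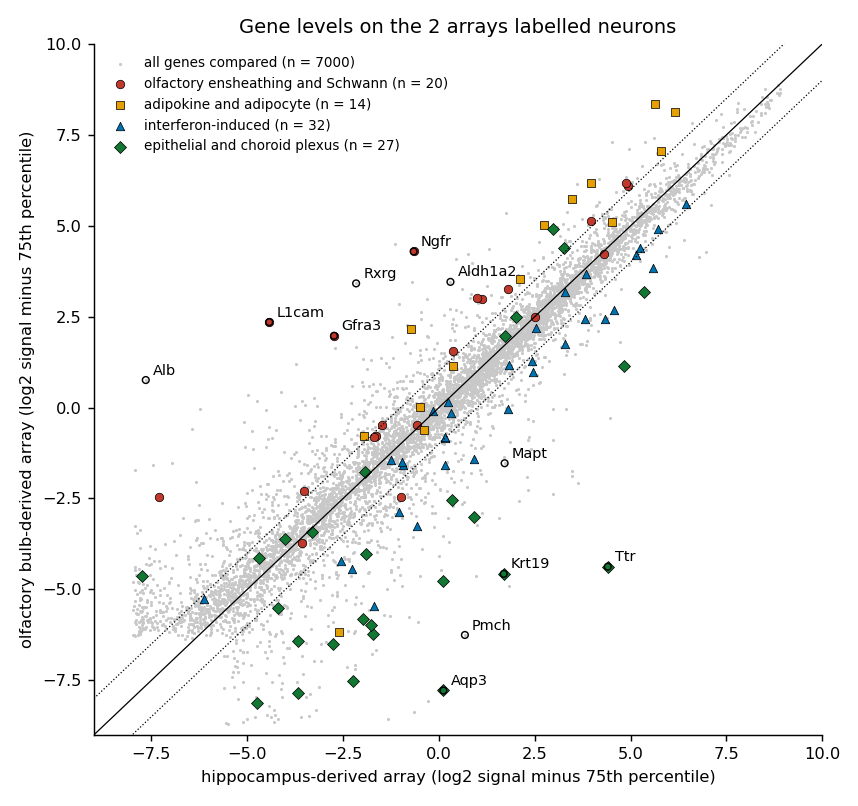
Level of each of 7000 genes on the hippocampus-derived array (x axis) and the bulb-derived array (y axis), both as log2 signal minus the array's 75th percentile, with 4 gene lists in colour and dim values drawn as measured. The solid line marks equal levels and the dotted lines 2-fold; most genes lie between the dotted lines, ensheathing and adipocyte genes lie mostly above the solid line, and epithelial and interferon-induced genes mostly below it.

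The label was checked against markers. Of 32 named genes of mature neurons and synapses, 25 were well above background on the hippocampus-derived array and 27 on the bulb-derived array. The synaptic vesicle protein gene Syt1, the kinase gene Camk2a, the glutamate transporter gene Slc17a7 and the GABA-synthesis genes Gad1 and Gad2 were not well above background on either. The summed signal of the 32 neuron genes, in multiples of the array's 75th percentile, was 36.8 in the hippocampus-derived and 30.1 in the bulb-derived cells, below the 198 and 140 of the stem cells of the same sources. The median level of the 32 genes went the other way. It was -1.59 in hippocampus-derived and -2.34 in bulb-derived cells, against -3.00 and -2.76 in the stem cells. By summed signal, 17 markers of pericytes, fibroblasts and smooth muscle stood at 604 and 769, against 13.4 and 4.47 in the stem cells. All 17 were well above background on both arrays of derived cells. Stem cells and derived cells lay on different slides, so slide and cell state cannot be told apart in these sums and medians. Astrocyte markers summed to 657 and 718. Of 16 named microglial and macrophage markers, 14 were well above background on each array of derived cells, but Itgam and Cx3cr1 on neither. Of 11 named endothelial markers, 8 were well above background in hippocampus-derived and 9 in bulb-derived cells, but Pecam1 in neither. The markers thus go against the label in part, and the samples are called bulb-derived and hippocampus-derived cells here. In RNA of whole cultures, fewer cells of a type and less RNA per cell cannot be told apart.

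Genes of neurons and neuroblasts were lower in the bulb-derived cells where they differed, with a few exceptions. Among 27 compared genes of mature neurons, 5 were lower and 2 higher (18.5% and 7.41%), with a median of -0.05. Mapt, which encodes the axonal microtubule protein tau, was at 1.71 in hippocampus-derived and -1.53 in bulb-derived cells, a difference of -3.24. Elavl4, an RNA-binding protein of young neurons, went from -0.30 to -2.34, and the neurofilament-like gene Ina from -0.12 to -1.80. Uchl1, an abundant neuronal ubiquitin hydrolase, was at 2.87 and 1.29. The growth-cone gene Gap43 was higher, at 0.36 and 1.57. Map2, the dendritic marker, was close on both arrays at -2.57 and -2.35.

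Neuroblast genes were lower more often than higher: of 12 compared, 5 were lower and 1 higher (median -0.50). Dlx5, a homeobox gene of forebrain interneurons, was 9.98-fold lower (-1.08 against -4.40), Elavl3 was 6.43-fold lower (-1.83 against -4.51), and Crmp1, a mediator of semaphorin signals, was 4.32-fold lower (-4.10 against -6.21). The neuronal tubulin gene Tubb3 stood at -0.38 and -1.92. Dcx, the marker of migrating neuroblasts, was at -1.91 and -2.62, a difference of -0.70 that stays under 2-fold.

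Genes that pattern the forebrain differed in both directions. Reln, the extracellular guide of cortical and bulb layering, was 7.55-fold higher (-0.47 against 2.44), and Nr2f2 was 2.26-fold higher. Calb2, which encodes calretinin, a marker of bulb granule and periglomerular cells, was 6.9-fold lower (1.85 against -0.94), and Isl1 was at least 3.67-fold lower. Th, the dopamine synthesis gene of periglomerular cells, was at -5.05 and -4.79, and Pax6 at -1.83 and -2.57, neither of which reached 2-fold. Of the 12 compared genes of bulb and ventral forebrain, 2 were higher and 2 lower.

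Genes of olfactory ensheathing cells and Schwann cells were among those higher on the bulb-derived side. Of 20 compared, 12 were higher (60%, against 7.66% of all genes) and 1 was lower, with a median of 1.19; under the mean of the spiked-in transcripts 6 were higher and 1 lower, with a median of 0.57. L1cam, an adhesion molecule of axons and of the glia that wrap them, had the largest measured difference of all 7000 genes in this direction: it was at -4.43 in hippocampus-derived and 2.35 in bulb-derived cells, 109.6-fold higher or 110-fold. Ngfr, the low-affinity neurotrophin receptor by which ensheathing cells are often selected, was at -0.66 and 4.29, a difference of 4.95. Gfra3, the co-receptor of artemin, was at -2.74 and 1.97, a difference of 4.71. Cdh19, a cadherin of Schwann cell precursors, was at least 9.43-fold higher, since it was not well above background in hippocampus-derived cells.

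Other genes of the list that were higher included the GDNF-family co-receptor gene Gfra2 (1.12 against 2.98) and Lgi4, a secreted factor of peripheral myelination (1.80 against 3.26). Npy, the neuropeptide gene that ensheathing cells express, was at 4.87 and 6.18. Sox10, which marks the whole lineage and oligodendrocytes as well, was nearly equal at 4.30 and 4.23. S100b, a calcium-binding protein gene of glia, was at -1.48 and -0.49, just below 2-fold. Egr2, the transcription factor of myelinating Schwann cells, was the 1 lower member at -0.99 and -2.45. Members that also belong to other lists used here include Fabp7, Gap43, S100b, Ncam1 and Sox10. They also include L1cam, Cdh19, Ngfr, Gfra2, Gfra3, Artn and Egr2. The summed signal of the list, in multiples of the array's 75th percentile, was 113 in hippocampus-derived and 260 in bulb-derived cells, against 212 and 152 in the stem cells.

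Neurotrophin and GDNF-family receptors and ligands divided by gene. Of 20 compared, 6 were higher and 1 lower. Beside Ngfr, Gfra3 and Gfra2, the ligand gene Ntf3 (neurotrophin-3) was 3.73-fold higher (-2.08 against -0.18), Gfra4 was 2.39-fold higher and Lifr 2.43-fold higher. Ntrk3, the receptor of neurotrophin-3, was 4.39-fold lower (3.85 against 1.71). Gdnf itself differed by -0.19, and Bdnf was at -1.11 and -1.96, both within 2-fold.

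Adhesion molecules of the immunoglobulin and cadherin families differed more often than most genes, and in both directions: 8 of 24 were higher (33.3%) and 5 lower (20.8%), or 6 and 8 under the mean of the spiked-in transcripts and 5 and 4 among the 20 well above background on both arrays. After L1cam came the synaptic adhesion genes Cadm3, at least 17.9-fold higher, and Cadm2, at -5.05 and -1.10, and Mdga2, a regulator of synaptic adhesion, at -3.38 and -0.62. On the other side lay Cntn2, at least 11.0-fold lower, Cntn1 (0.66 against -2.59) and Opcml (-2.80 against -5.56), which are GPI-anchored molecules of axons and neurons. Ncam1 was nearly equal at -0.57 and -0.47.

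Myelin and oligodendrocyte genes gave 5 higher and 1 lower of 12, with a median of 0.39 (-0.07 under the mean of the spiked-in transcripts). Mag, a protein of the inner myelin layer that Schwann cells also make, was at least 15.7-fold higher and not well above background in hippocampus-derived cells. Enpp2 (2.98 against 4.92), Cspg4, the NG2 proteoglycan of oligodendrocyte precursors and pericytes (3.23 against 5.05), and Olig1 (2.72 against 4.12) were higher as well. Mbp, the major myelin protein gene, was 2.16-fold lower (-2.05 against -3.17), and Mog was within 2-fold.

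Of 20 astrocyte genes compared, 8 were higher and 3 lower, with a median of 0.68; under the mean of the spiked-in transcripts the balance turned, with 4 higher and 5 lower and a median of 0.07. Aqp4, the water channel of astrocyte endfeet, was at -2.71 in hippocampus-derived and 1.64 in bulb-derived cells, a difference of 4.35 on its brightest probe; its other 3 probes were seen only in bulb-derived cells, with bounds from 0.31 to 3.23. The gap junction gene Gjb6 was 4.28-fold higher (1.25 against 3.35), the bicarbonate transporter gene Slc4a4 3.28-fold higher, and the glutamate transporter gene Slc1a2 2.66-fold higher. Gja1, which encodes the other astrocyte connexin, was 2.07-fold lower (5.56 against 4.51), and Aldoc and Fgfr3 were also lower. Gfap was at -1.72 and -0.99, under 2-fold.

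Microglial and macrophage genes gave 4 higher and 2 lower of 14 (1 higher and 2 lower under the mean of the spiked-in transcripts), with summed signals of 25.3 and 26.2. P2ry12, a purinergic receptor of resting microglia, was 5.38-fold higher (-2.30 against 0.13), and the complement genes C1qa and C1qb were 2.93-fold and 2.57-fold higher. Cd74, the invariant chain of antigen presentation, was 4.08-fold lower (-2.67 against -4.70), and the lipopolysaccharide receptor gene Cd14 was 2.59-fold lower (2.14 against 0.77). Aif1, the standard microglial marker, was at -1.54 and -0.62.

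**Figure D2:**
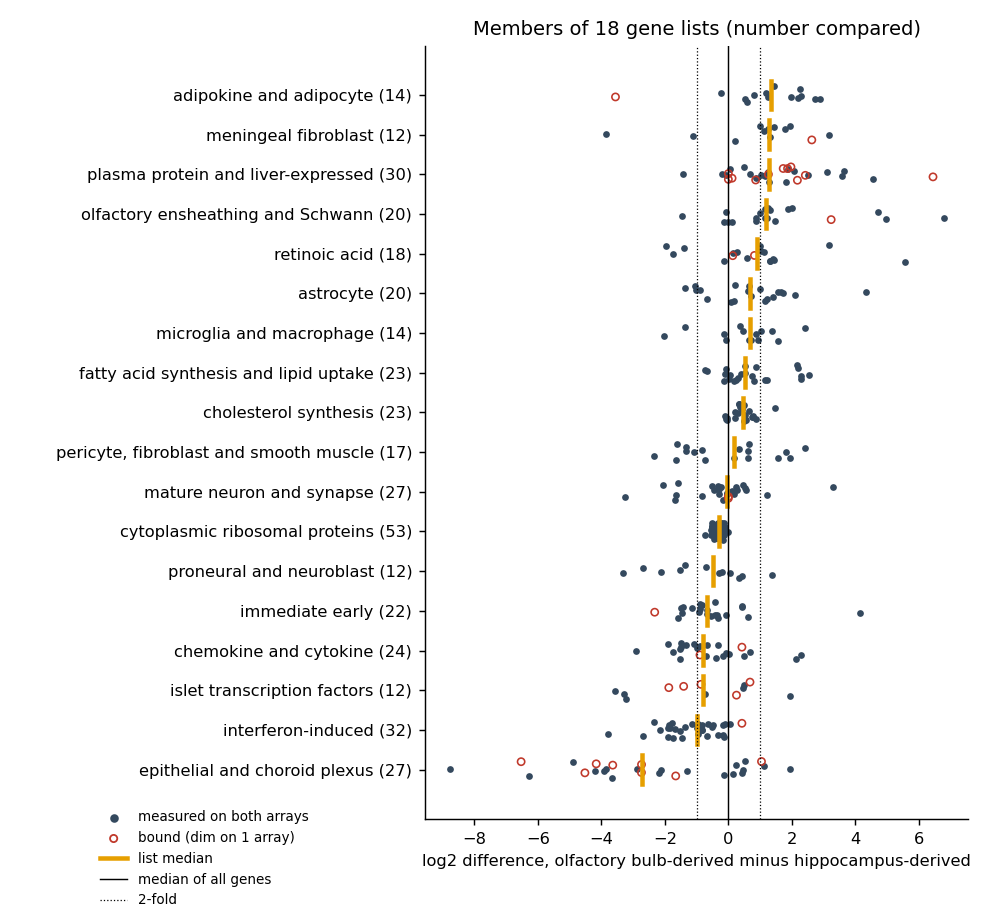
Difference of each compared member (points) of 18 gene lists between the bulb-derived and hippocampus-derived arrays, in log2 units, with the list median as an orange bar, the median of all genes (-0.01) as a solid line and 2-fold as dotted lines. List medians run from -2.74 for epithelial and choroid plexus genes to 1.34 for adipocyte genes; ribosomal protein genes form a narrow group just below 0.

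Fibroblast genes of the meninges were mostly higher in bulb-derived cells. Of 12 compared, 8 were higher and 2 lower, with a median of 1.28 (4 higher and 2 lower under the mean of the spiked-in transcripts). Aldh1a2, the retinaldehyde dehydrogenase of the meninges, was at 0.30 and 3.46, a difference of 3.16 or 8.92-fold. Slc22a6, an organic anion transporter, was at least 6.18-fold higher, Igf2 was 3.86-fold higher (5.36 against 7.31), and the GABA transporter gene Slc6a13 was 3.45-fold higher (-0.54 against 1.24). Cdh1, the E-cadherin gene on this list and an epithelial gene too, was 14.4-fold lower (-1.98 against -5.83).

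General mesenchymal genes differed in both directions. Of 17 markers of pericytes, fibroblasts and smooth muscle, 4 were higher and 6 lower. The fibroblast proteoglycan genes Dcn (2.66 against 5.07) and Lum (-0.25 against 1.32) and the fibroblast protease gene Fap (-2.27 against -0.32) were higher. The pericyte potassium channel genes Kcnj8 (3.26 against 0.91) and Abcc9 (-1.83 against -3.16), which encode partner subunits, and the contractile genes Des, Cnn1 and Tagln, with differences of -1.63, -1.33 and -1.08, were lower. The collagen genes Col1a2 (7.69 against 7.86) and Col3a1 (7.24 against 7.90) and the receptor gene Pdgfrb (3.27 against 2.44) lay within 2-fold.

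Matrix genes likewise split, with 7 of 24 proteoglycan, laminin and glycoprotein genes higher and 7 lower. Vtn, the plasma and matrix protein vitronectin, was 8.67-fold higher (-0.83 against 2.28), Spon1 was 7.39-fold higher (-1.51 against 1.37), and Eln, the elastin gene, 3.9-fold higher (-3.52 against -1.55). Fn1, the fibronectin gene, was 2.24-fold lower at high levels (7.56 against 6.40), Ecm1 was 3.84-fold lower, and the neural proteoglycan gene Ncan 2.82-fold lower. Among matrix proteases, Mmp10 was 24.1-fold lower (1.55 against -3.04) and Plau, the urokinase gene, 5.05-fold lower, while Mmp9 was 5.16-fold higher (-2.56 against -0.19).

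Retinoic acid genes gave 8 higher and 3 lower of 18, with a median of 0.91 (2 higher and 3 lower, median 0.30, under the mean of the spiked-in transcripts), and the direction differed by role. Of the genes that make or carry the ligand, Aldh1a2 as above, Aldh1a3 (-1.98 against -0.65), the retinol dehydrogenase gene Rdh10 (-1.38 against 0.03) and the retinoic acid-binding gene Crabp2 (5.17 against 6.31) were higher, and Aldh1a1 was just short of 2-fold. Of those that remove it, the degrading enzyme genes Cyp26b1 (-0.48 against -2.22) and Cyp26a1 (-4.58 against -5.97) and the retinaldehyde reductase gene Dhrs3 (1.40 against -0.56) were lower. Rarres2 and Tgm2 were higher too, with log2 differences of 1.43 and 1.02. The receptor gene Rxrg was 47.7-fold higher, at -2.16 in hippocampus-derived and 3.41 in bulb-derived cells, whereas Rxra, Rxrb and Rara lay within 2-fold.

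Adipocyte genes were the list with the highest median, 1.34, with 9 of 14 higher and 1 lower. Cidec, a lipid droplet protein gene, was 7.43-fold higher (-0.73 against 2.16). Cfd, which encodes adipsin, was 6.64-fold higher (5.62 against 8.36), Adipoq, the adiponectin gene, 4.82-fold higher (3.47 against 5.74), and Retn, the resistin gene, 3.92-fold higher (6.15 against 8.12). All 4 were well above background in both kinds of derived cells and in neither stem cell sample. Pparg, the transcription factor of adipocyte fate, was at 0.36 and 1.15, within 2-fold, and Lep, the leptin gene, was not well above background on either array. Lcn2 was the 1 lower member, at least 11.8-fold.

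Of 23 lipid uptake and synthesis genes, 7 were higher and 0 lower, with a median of 0.51 (-0.10 under the mean of the spiked-in transcripts). Besides Lpl and Fabp4, which are adipocyte genes too, Scd, the stearoyl-CoA desaturase gene, was 5.75-fold higher (3.61 against 6.14), the fatty acid translocase gene Cd36 4.83-fold higher, Acsl1 4.51-fold higher, the exporter gene Abcg1 2.32-fold higher and Fasn 2.23-fold higher. Of 23 cholesterol synthesis genes only Insig1, the sterol-sensitive brake on the pathway, was called higher (4.87 against 6.33), but 19 of the 23 lay above 0 and the median was 0.45 (-0.16 under the mean of the spiked-in transcripts).

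Genes of plasma proteins and of liver metabolism, a list put together after their values were seen, were higher in 19 and lower in 1 of 30 compared, with a median of 1.27. With normexp background correction 11 were higher, with a median of 0.68, and among the 19 genes well above background on both arrays 12 were higher; the other 11 were seen only on the bulb-derived array, whose limit for well above background was lower. Alb, the albumin gene, was not well above background in hippocampus-derived cells and was at 0.76 in bulb-derived cells, at least 87.1-fold higher. Afp, the fetal counterpart of albumin and its neighbour in the genome, was at -4.12 and 0.44, a difference of 4.56. The transferrin gene Tf was 12.5-fold higher (0.43 against 4.08), Pck1, which encodes a gluconeogenic enzyme, 11.8-fold higher (-3.49 against 0.07), and the acute-phase gene Orm1 5.63-fold higher. The 3 fibrinogen genes were higher too: Fgb was at -5.22 and -3.34, and Fga and Fgg were at least 3.64-fold and 3.31-fold higher. Of 37 named members, 30 were well above background in bulb-derived cells and 19 in hippocampus-derived cells. Hnf4a, the hepatocyte transcription factor, was at -4.10 and -3.60, and the hepatocyte genes Cps1, Tat and Cyp2e1 were not well above background on either array. C3 was the lower member, at 1.63 and 0.19.

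Genes of epithelia and of the choroid plexus had the lowest median of the lists plotted. The list was also put together after the values were seen; of 27 compared, 18 were lower and 3 higher (median -2.74), and of the 19 well above background on both arrays 11 were lower and 2 higher. Ttr, the transthyretin gene and the best known product of the choroid plexus, had the largest difference of all genes compared: it was at 4.40 in hippocampus-derived and -4.38 in bulb-derived cells, a difference of -8.78, or 440-fold. The keratin genes Krt19 (1.69 against -4.57), Krt18 (4.83 against 1.15) and Krt8 (0.33 against -2.53) were lower by differences of -6.26, -3.68 and -2.86. The water channel gene Aqp3 was at least 92.2-fold lower and the choroid plexus potassium channel gene Kcnj13 at least 22.9-fold lower, neither being well above background in bulb-derived cells. Epcam (-1.79 against -5.99), the tight junction gene Ocln (0.91 against -3.00) and Lrp2, the endocytic receptor megalin (0.11 against -4.78), followed.

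Within the same list, Aqp1, the water channel of choroid plexus epithelium, was at 5.36 and 3.16, and Folr1, its folate receptor, at -1.91 and -4.03. The prolactin receptor gene Prlr and Kl, which encodes klotho, are choroid plexus genes that were not well above background on either array, and the basal keratin genes Krt5 and Krt14 differed by 0.54 and 0.42. Ependymal and cilia genes, apart from Ttr, were close to equal: 9 of 11 lay within 2-fold, among them Foxj1, the master gene of motile cilia (0.77 against 0.97). Tppp3 was the 1 higher member, at 0.76 and 4.22. Of the 31 named members of the epithelial list, 26 were well above background in hippocampus-derived cells and 20 in bulb-derived cells.

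**Figure D3:**
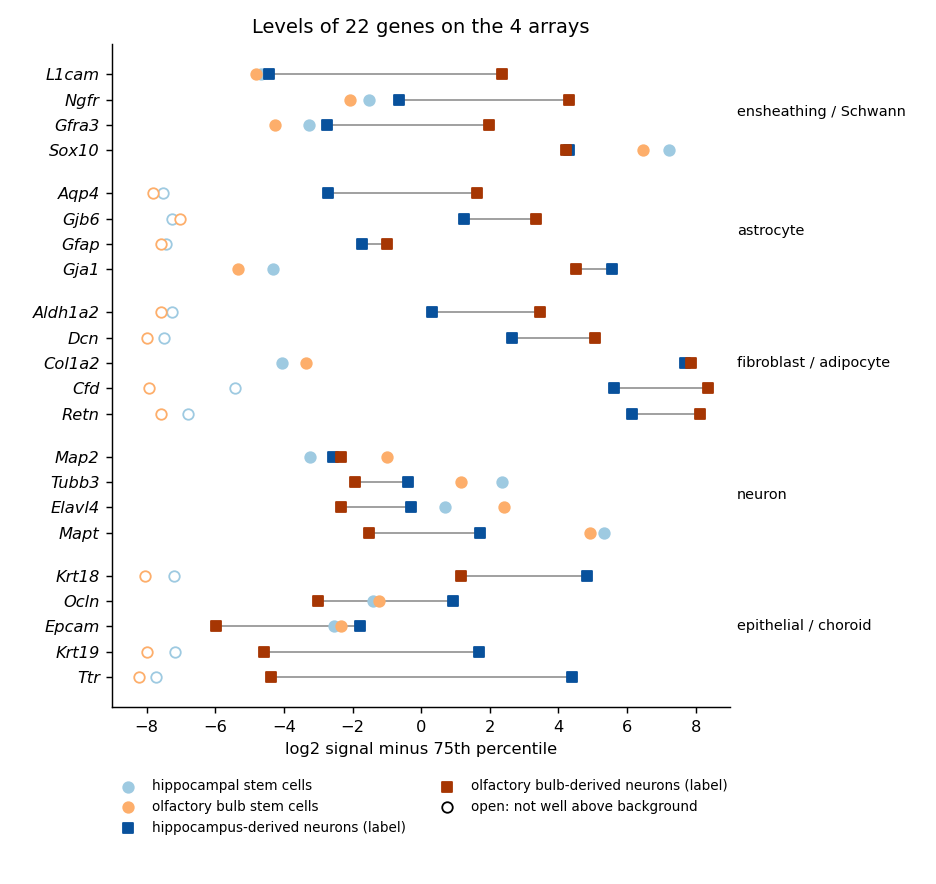
Levels of 22 genes on the 4 arrays (x axis, log2 signal minus the array's 75th percentile), with stem cells as circles and the derived cells as squares, and open symbols where the probe was not well above background. L1cam, Ngfr and Gfra3 are highest in the bulb-derived cells and Ttr and Krt19 in the hippocampus-derived cells, while the stem cells of the 2 sources lie lower.

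Among the single genes furthest from 0 were several that belong to none of these groups. Pmch, the melanin-concentrating hormone gene, was 122-fold lower in bulb-derived cells (0.68 against -6.25), and Galp, the galanin-like peptide gene, 107-fold lower (1.84 against -4.90); both peptides are otherwise known from the hypothalamus. Qrfpr, the receptor of another hypothalamic peptide, was at least 69.8-fold lower, and Calcr, the calcitonin receptor gene, at least 54.3-fold lower. Apold1, an immediate early gene of endothelium, was 51.4-fold lower (3.62 against -2.06), Cdx2, the intestinal homeobox gene, 31.6-fold lower (-0.79 against -5.77), and Il1rn, the interleukin-1 receptor antagonist gene, 26.8-fold lower (4.47 against -0.27). On the other side stood Entpd2, an ecto-ATPase of glia, 49.6-fold higher (-1.14 against 4.49), and Slc18a2, the vesicular monoamine transporter gene, 30.4-fold higher (-3.72 against 1.20). Rasd2 was 25.6-fold lower on its brighter probe, and its second probe gave a difference of -2.24.

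The neuropeptide list had 8 higher and 4 lower members of 23 compared (34.8% and 17.4%, against 7.66% and 8% of all genes). Pmch and Galp, both lower as given above, were not on that list, so the balance depends on its make-up. Edn3, the endothelin-3 gene, was 30.5-fold higher (-4.75 against 0.18), Calcb, one of the calcitonin gene-related peptide genes, 21.8-fold higher (-4.51 against -0.06), Gal, the galanin gene, 14.3-fold higher (-2.17 against 1.67), and Trh 9.4-fold higher (-3.18 against 0.05). Sst, the somatostatin gene, was 17.0-fold lower (0.00 against -4.09) and Penk, the proenkephalin gene, 6.29-fold lower (6.79 against 4.14). Pomc and Cck lay within 2-fold.

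Interferon-induced antiviral genes lay below 0 in 30 of 32 cases. Of the 32 compared, 15 were lower (46.9%, against 8% of all genes) and 0 higher, with a median of -0.98; 25 were lower under the mean of the spiked-in transcripts. Ifit3, which binds viral RNA complexes, was at -1.69 in hippocampus-derived and -5.47 in bulb-derived cells, a difference of -3.78. Mx1, a GTPase against influenza-type viruses, was at -0.56 and -3.25, Rsad2, which encodes viperin, at 0.93 and -1.42, and Irf7, the transcription factor that amplifies interferon production, at 4.56 and 2.67. The oligoadenylate synthetase genes Oas1a (4.33 against 2.43), Oas1i (1.80 against -0.05), Oas1b (-2.56 against -4.23), Oasl and Oasl2 were all lower; since these are close copies, a probe may bind the RNA of more than 1 of them. Upstream members differed little: Stat2 was at 0.25 and 0.14 and Irf1 at -0.15 and -0.09.

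Interferon acts through a promoter sequence, the interferon-stimulated response element, whose core is taken here as GAAA, then any 2 bases, then GAAA. In RefSeq promoters of the rat assembly GRCr8, it was searched on either strand in the 250 bases before the start of the gene; overlapping matches were counted. It was found in 902 of 27457 promoters (3.29%), in 181 of the 5679 compared genes with a promoter in the table (3.19%), and in 18 of 27 interferon-induced genes (66.7%). By direction, 10 of the 12 lower interferon genes with a promoter held it and 8 of the 15 not called did. Over all lower genes the share was 5.09%, and over all higher genes 3.62%. Printed below are 6 of the lower genes with a match, 5′ to 3′ along the gene, ending at the last base before the start, with the match in capitals, because they show the element at different places in promoters of genes that differed in the same direction.
Ifit3, chr1:241527076-241527325, plus strand: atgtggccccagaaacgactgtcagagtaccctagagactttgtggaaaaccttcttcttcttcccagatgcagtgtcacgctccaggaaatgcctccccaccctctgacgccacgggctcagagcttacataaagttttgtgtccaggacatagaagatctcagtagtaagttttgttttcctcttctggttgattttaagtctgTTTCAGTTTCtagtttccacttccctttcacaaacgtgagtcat
Rsad2, chr6:48788121-48788370, minus strand: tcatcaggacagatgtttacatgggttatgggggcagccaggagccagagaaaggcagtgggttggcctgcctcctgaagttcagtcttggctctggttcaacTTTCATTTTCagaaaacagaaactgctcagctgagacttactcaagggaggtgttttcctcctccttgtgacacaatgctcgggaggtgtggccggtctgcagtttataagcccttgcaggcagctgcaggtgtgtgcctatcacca
Oas1a, chr12:41330216-41330465, plus strand: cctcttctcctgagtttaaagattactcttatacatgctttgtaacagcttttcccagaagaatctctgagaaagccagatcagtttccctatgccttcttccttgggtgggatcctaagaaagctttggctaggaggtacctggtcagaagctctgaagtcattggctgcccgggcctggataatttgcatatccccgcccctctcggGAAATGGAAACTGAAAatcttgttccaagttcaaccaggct
Irf7, chr1:205800024-205800273, minus strand: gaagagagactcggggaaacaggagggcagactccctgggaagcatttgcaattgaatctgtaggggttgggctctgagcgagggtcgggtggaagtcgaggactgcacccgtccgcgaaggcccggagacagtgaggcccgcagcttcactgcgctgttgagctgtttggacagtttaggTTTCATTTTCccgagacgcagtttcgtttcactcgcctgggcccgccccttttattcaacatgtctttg
Oasl2, chr12:47383186-47383435, minus strand: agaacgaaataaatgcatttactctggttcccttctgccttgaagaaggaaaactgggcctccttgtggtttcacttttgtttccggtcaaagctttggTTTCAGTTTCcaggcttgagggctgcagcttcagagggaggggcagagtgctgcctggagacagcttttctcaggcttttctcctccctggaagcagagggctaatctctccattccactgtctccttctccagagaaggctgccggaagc
Cxcl10, chr14:15988816-15989065, plus strand: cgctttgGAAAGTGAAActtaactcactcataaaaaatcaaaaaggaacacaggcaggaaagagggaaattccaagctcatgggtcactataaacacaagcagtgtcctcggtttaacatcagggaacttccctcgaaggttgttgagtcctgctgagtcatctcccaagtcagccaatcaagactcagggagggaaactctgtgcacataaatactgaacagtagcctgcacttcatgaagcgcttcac
The element lay near the start in Ifit3 (first base at position -44 from the start of the gene), Irf7 (-69) and Oas1a, where 2 matches overlapped, and further away in Rsad2 (-147), Oasl2 (-151) and Cxcl10 (-243). Mx1 and Oasl, which were lower too, had no match in this window.

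**Figure D4:**
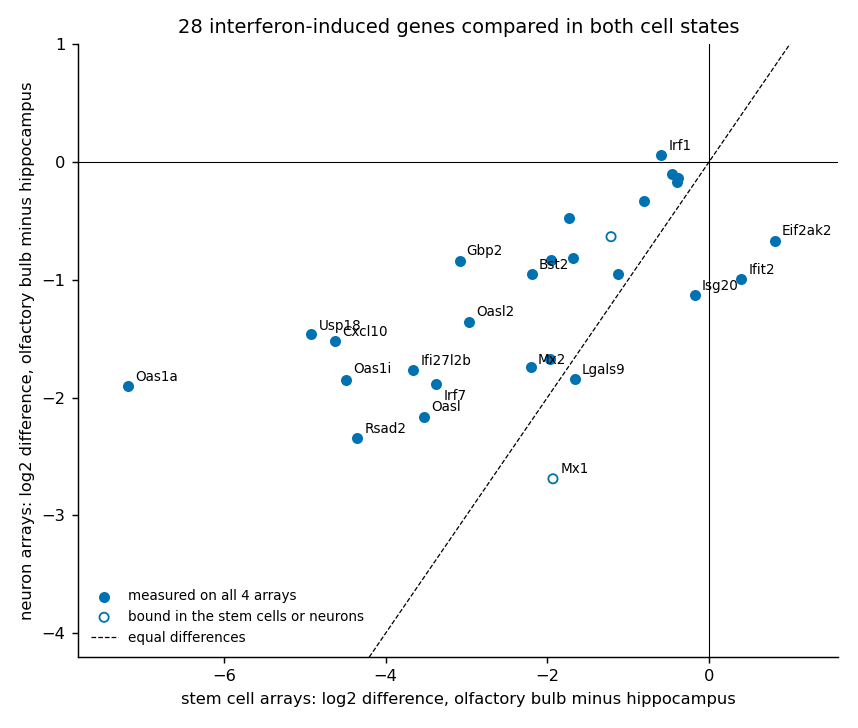
Difference between olfactory bulb and hippocampus for 28 interferon-induced genes on the stem cell arrays (x axis) and on the arrays labelled neurons (y axis), in log2 units; open circles are bounds and the dashed line marks equal differences. Most genes lie below 0 in both cell states, and 23 of the 28 lie further below 0 in the stem cells.

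Many interferon-induced genes were also lower in bulb stem cells than in hippocampal stem cells, where 20 of 28 were lower and 0 higher (median -1.94). In that comparison 421 of 6028 genes were lower (6.98%) and 251 higher (4.16%). Oas1a was at 3.25 in hippocampal and -3.94 in bulb stem cells, a difference of -7.19 where the derived cells gave -1.90, and Usp18, which restrains interferon signalling, gave -4.92 and -1.46. Isg20 gave -0.18 in the stem cells and -1.13 in the derived cells. In all, 13 of the genes were lower in both states, and whether the difference changed between the states was not tested.

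Antigen presentation genes were closer together. Of 18 compared, 2 were lower and 0 higher (median -0.32), and 15 lay below 0. Beside Cd74, the class II gene RT1-Db1 was 2.6-fold lower (-4.50 against -5.87), while B2m, the light chain of class I, was at 7.85 and 7.57. Chemokine and cytokine genes gave 9 lower and 2 higher of 24. The neutrophil chemokine genes Cxcl1 (4.38 against 2.47) and Cxcl2 (-1.74 against -3.24), Ccl20 (2.48 against 0.97), Cx3cl1 (5.92 against 4.16) and Cxcl14 (4.72 against 1.81) were lower. The homeostatic chemokine genes Cxcl12, a fibroblast product that guides neuroblasts (4.17 against 6.29), and Cxcl13 (-2.56 against -0.26) were the 2 higher members.

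The insulin genes named by the study's title were nearly level between the sources. Ins1 was at -1.21 in hippocampus-derived and -0.89 in bulb-derived cells, a difference of 0.32, and Ins2 at -2.63 and -2.13, a difference of 0.50. The 2 genes are near-identical copies, so either probe may bind both RNAs. Of 18 genes of insulin and secretory granules, 4 were lower (9 under the mean of the spiked-in transcripts) and 0 higher, led by Sst and by Scg2, the secretogranin gene, which was 11.7-fold lower (2.41 against -1.14). Pcsk1, which encodes a prohormone convertase, was 3.45-fold lower (-1.15 against -2.94), whereas Pcsk2 was at -4.61 and -5.16 and Cpe at 4.75 and 4.21.

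Transcription factors of the pancreatic islet differed more, with 5 lower and 1 higher of 12 and a median of -0.80 (3 lower with normexp background correction). Irx2 was 11.8-fold lower (-1.18 against -4.74), Nkx6-1, a factor of beta cells and of the ventral neural tube, 9.68-fold lower (-1.25 against -4.53), and Foxa2, a factor of endoderm and floor plate, 9.38-fold lower (-1.25 against -4.48). Pdx1 was at least 1.19-fold higher, under 2-fold, and Neurod1 was not well above background on either array. The epithelial genes were lower alongside these factors, 18 of 27 with a summed signal of 126 in hippocampus-derived and 73.2 in bulb-derived cells, and their part in these differences was not tested.

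Of 19 genes of insulin and IGF signalling, 4 were higher and 2 lower (2 and 3 under the mean of the spiked-in transcripts). Igf1 was 12.1-fold higher on its brightest probe (1.76 against 5.36), but its 4 probes disagreed, giving 3.60, 3.29, 0.96 and 0.37. Igf2, Igfbp2 and Igfbp5 were higher, with log2 differences of 1.95, 1.45 and 1.11, while Igfbp6 was 3.92-fold lower (0.49 against -1.48). The receptor genes Igf1r (1.16 against 0.35), Igf2r and Insr lay within 2-fold, as did Irs1, Akt1 and Akt2.

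Among ligands of the EGF family, 3 were lower. Tgfa, which activates the EGF receptor, was at 2.98 and -0.90, a difference of -3.88, Areg at 3.32 and -0.04 and Nrg1, the neuregulin that Schwann cells depend on, gave a difference of -2.21. Egfr itself was 2.12-fold higher (-2.93 against -1.85), and Erbb2 and Erbb3 lay within 2-fold. Over the list of 11, 3 were lower and 1 higher; the ligand genes Egf and Btc lay above 0, under 2-fold. FGF pathway genes gave 6 lower and 2 higher of 20 (3 and 1 with normexp background correction), with Fgf9 6.57-fold lower (-1.84 against -4.56), Fgf18 4.05-fold lower and Fgf5 at least 4.97-fold higher, while Fgfr1 was at 2.98 on both arrays.

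BMP genes gave 7 lower and 2 higher of 21. The ligand genes Bmp4 (-1.40 against -2.93) and Bmp2 (1.02 against -0.23) and the decoy receptor gene Bambi (3.31 against 1.45) were lower. So were the target genes Id4 (3.87 against 1.84) and Id2 (0.49 against -0.61) and the inhibitor gene Grem1 (-2.39 against -3.80). The inhibitor gene Chrdl1 (-3.23 against -1.28) and the ligand gene Bmp6 (-3.71 against -2.47) were the 2 higher members. Id1 and Id3 were at differences of -0.93 and -0.89, short of 2-fold, and the receptor gene Bmpr1a was level. In the TGF-beta list, 4 of 17 were lower and 3 higher. The ligand gene Tgfb2 (-2.38 against -4.16) and the target genes Thbs1 (-3.48 against -5.73) and Ccn2 (3.97 against 2.27) were among the lower. The higher were the receptor genes Tgfbr3 (-3.06 against -1.87), Acvr2a (-2.11 against -1.09) and Acvr1c (at least 2.46-fold). Of 15 Wnt pathway genes, 2 were lower, the receptor gene Fzd9 (-0.19 against -2.71) and the antagonist gene Sfrp4 (-0.17 against -1.99), and Wnt4 was higher (-1.95 against -0.26). Notch genes were nearly level, with 11 of 12 within 2-fold and only Dlk1, a non-canonical ligand gene, higher (-2.47 against -1.12).

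Immediate early genes, which respond within minutes to growth factors or handling, were within 2-fold for 15 of 22 compared, with 6 lower and 1 higher (median -0.67); 15 were lower under the mean of the spiked-in transcripts. Egr4 was at least 4.99-fold lower, Myc 2.99-fold lower (2.69 against 1.11), Arc 2.82-fold lower and Egr1 2.69-fold lower (1.44 against 0.02), while Fos was at 0.23 and -0.10. Atf3, a stress and nerve-injury transcription factor, was the 1 higher member, 17.8-fold higher (-0.71 against 3.45). It was also the 1 higher member of 22 compared amino acid and ER stress genes, of which 2 were lower. Among these, Ddit3 was at 1.49 and 0.61 and Trib3 was 2.96-fold lower (2.08 against 0.51). Other stress genes were higher, among them Hmox1 (2.49 against 3.55) and the small heat shock gene Cryab (3.73 against 5.19).

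Receptors and channels of excitable cells differed in both directions. Of 31 named glutamate and GABA receptor genes, 24 were well above background in bulb-derived and 15 in hippocampus-derived cells; 4 of 26 compared were higher and 3 lower (1 and 0 with normexp background correction). Grik2, a kainate receptor subunit gene, was 5.39-fold higher (-5.06 against -2.63), the GABA receptor subunit gene Gabrb1 at least 5.08-fold higher, and the NMDA receptor subunit gene Grin2a at least 3.95-fold lower. Among 34 ion channel genes, 6 were higher and 5 lower (3 and 3 with normexp background correction). The T-type calcium channel gene Cacna1g was 3.7-fold higher (-3.85 against -1.96), while the axonal potassium channel gene Kcna1 was 3.3-fold lower (2.10 against 0.38).

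Genes of general cell function were close to level. None of 53 cytoplasmic ribosomal protein genes was called (16 were lower under the mean of the spiked-in transcripts), although all 53 lay below 0, from -0.75 to -0.01, with a median of -0.29. None of 27 respiratory chain genes was called, from -0.44 to 0.56, and none of 15 replication and mitosis genes, from -0.86 to 0.72; Cdk1 was at 4.30 and 4.52 and Pcna at 2.03 and 1.83. Glycolysis and hypoxia genes gave 4 lower and 2 higher of 25, among them the glucose transporter gene Slc2a3 (0.36 against -2.70) on the lower and Vegfa (-0.71 against 0.73) on the higher side, and 18 of the 25 lay below 0. Among cyclin, inhibitor and p53 target genes, Cdkn1c, the imprinted growth inhibitor, was 6.97-fold higher (4.52 against 7.32), and the inhibitor genes Cdkn2a and Cdkn2b were lower, with differences of -1.58 and -1.38.

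Genes that differed between the derived cells were mostly not those that differed between the stem cells. Of the 536 higher genes, 217 (40.5%) were not well above background in either stem cell sample, against 15.5% of all genes compared, and of the 319 that could be compared there, 22 were higher (6.9%) and 36 lower (11.3%). Of the 560 lower genes, 196 (35%) were not well above background in the stem cells, and of the 364 others 60 were lower (16.5%) and 14 higher (3.85%). Among all genes compared in both states the shares were 4.09% higher and 6.68% lower. L1cam was at -4.66 and -4.80 in the hippocampal and bulb stem cells, Ngfr at -1.53 and -2.08, and Lrp2 at 0.58 and 1.06, none of them 2-fold apart, and Ttr, Alb, Aqp4 and Krt19 were not well above background in either.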

How the data were processed

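The 4 arrays each held RNA pooled from 3 independent experiments, labelled with Cy3 and scanned in 1 colour. Per the file headers, Agilent Feature Extraction 10.5.1.1 made the deposited processed signal, an intensity on a linear scale after background subtraction, and flagged spots well above background. The values of the deposited series table equal that intensity, so they were used as a check. No further normalization by the authors is given in the sources used here.

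Control spots were left out, and 40758 of 41012 probes were kept. The log2 of the intensity minus the array's 75th percentile was taken, and spots of a probe were averaged. Accessions in the files were matched to a RefSeq gene table (GRCr8): 10783 probes had 1 symbol, 0 several and 29975 none. The brightest probe over the 4 arrays stood for each of 8927 genes; it was compared where 1 or both arrays of derived cells showed it well above background, with the dim side set to a bound. No test was possible with 1 array a group. Genes were named as the 15 largest measured differences and the 8 largest bounds in each direction, up to 8 members of each gene list by size, defining cell type markers, the insulin genes and genes whose probes disagreed; other named members were chosen after their values were seen. Members and lists were chosen with earlier results of these data known, and 2 lists after the values were seen. Steps were tested on simulated data. Precision is limited by the number of arrays. Tools were Python 3.11.15, pandas 2.3.3, numpy 2.4.6 and, for an alternative background correction, limma 3.58.1 in R 4.3.3. Alternatives changed the scaling, background correction, filter, choice of probe and source table. Some items are not reported here.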

Additional observations from a re-analysis of the deposited data

Results flagged for a closer look

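Several genes differed at least 2-fold between the sources in opposite directions in the stem cells and in the derived cells. None of these opposite differences was tested, since each state has 1 array a source. The stress gene Atf3 was higher by 4.15 (log2, bulb minus hippocampus) in the derived cells and gave -1.52 in the stem cells. Tppp3, a tubulin-binding protein gene, gave 3.46 and -2.30 in the same order, the parathyroid hormone-related peptide gene Pthlh gave 2.43 and -1.11, and the angiotensinogen gene Agt gave 2.06 and -1.01. Igfbp2 gave 1.45 and -1.33, Dlk1 gave 1.35 and -1.13, and Zic1 gave 1.30 and -1.56. The heme oxygenase gene Hmox1 gave 1.07 and -1.87, and the hypoxia-responsive gene Ndrg1 gave 1.06 and -2.01. For Neurod2 both values are bounds, 1.08 and -1.09. The neuronal RNA-binding protein genes went the other way, with Elavl3 at -2.68 in the derived cells and 1.19 in the stem cells and Elavl4 at -2.04 and 1.70. The neurotrophin-3 receptor gene Ntrk3 gave -2.13 and 1.35, and the netrin receptor gene Unc5c gave -1.10 and 1.01.

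Outside the genes, 1 spiked-in transcript of the 7 that were well above background on all arrays was 3.06 brighter, before scaling, on the bulb-derived array than on the hippocampus-derived array (log2 17.13 against 14.08), and stood at 13.69 and 13.63 on the stem cell arrays. The other 6 differed by -0.03 to 0.08 between the arrays of derived cells.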

How the results depend on the processing

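Of 290 named genes that were called, 191 kept their call and direction under every alternative that could value them, and 0 turned to the opposite direction. With normexp background correction, 343 genes were higher and 334 lower; with no filter on dim probes, 812 were higher, and the lower count stayed within 1.5 times. Scaling by the mean of the spiked-in transcripts, chosen after seeing the data, gave 257 higher and 1516 lower; by construction it rests on the 1 transcript that stood apart, since their median gave 463 and 650. The cause of the normexp and filter changes was not tested. Counts under median scaling, quantile normalization, both arrays well above background, the mean over a gene's probes and the deposited series table stayed within 1.5 times. Medians of the interferon, ensheathing, meningeal, adipocyte and epithelial lists kept their sign under all of these. Naming through the accession alone was not run as a separate alternative, because the files hold no gene name column and every name already came from the accession. No paired analysis was possible because each group has 1 array and no replicate number. With 1 pool a group the spread between cultures is unknown, and genes near background have only a bound.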

Other observations

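Genes that are neighbours in the order of the RefSeq table differed together in several places. Among 2524 pairs of neighbouring compared genes, 30 were both higher in bulb-derived cells, 36 both lower and 27 opposite. Of all 7000 genes compared, 7.66% were higher and 8% lower. Whether neighbours shared a direction more often than other pairs of genes was not tested. Among the pairs that were both higher were Afp (4.56) and Alb (a bound of 6.44), the phospholemman gene Fxyd1 (3.18) and Lgi4 (1.47), and the lymphocyte antigen genes Ly6g6d (4.68) and Ly6g6e (a bound of 5.64). The keratin genes Krt8 (-2.86) and Krt18 (-3.68) and the channel subunit genes Kcnj8 (-2.35) and Abcc9 (-1.34) were both lower. Mitochondrial carrier genes Ucp3 (a bound of 3.63) and Ucp2 (-1.20) were opposite. These pairs were picked after their values were seen, and some are copies that a probe may not tell apart.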
